A study of Mus musculus with 17 samples.

Results

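Undifferentiated embryonic stem cells (ESCs) of the mouse lines D3 and B8 were compared by small RNA sequencing across all mature microRNAs (miRNAs) of the deposited table. The comparison took the 3 D3 and the 3 B8 samples labelled as day 0, which are 6 of the 17 labelled samples of the series and 6 of the 14 with values here. Both lines had been grown without feeder cells in serum-containing medium with LIF, the cytokine that holds mouse ESCs undifferentiated, and neither had been treated. The remaining samples were day 7 embryoid bodies and day 21 outgrowths of the same lines, cultured without LIF and with retinoic acid. Each line is 1 cell line known here by its name alone. No label states that replicates came from separate cultures, so the p-values reflect sample-to-sample spread that could be technical. All 1033 miRNAs of the table were considered, and 521 passed the filter, a mean level of 5 per 1000000 or more over the 14 libraries. The 512 not tested reached at most 3.51 in an ESC library and together held 0.0517% of the signal in B8 and 0.0544% in D3.

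A miRNA is a short RNA cut from a hairpin precursor, and bases 2 to 8 of the mature strand, the seed, pair with target mRNAs, so miRNAs with 1 seed form a family. Mouse ESCs are known for the miR-290 cluster, whose main seed it shares with the miR-302 cluster, and for low levels of mature let-7, a family that accumulates as cells differentiate and whose maturation Lin28 blocks. The Dlk1-Dio3 region is an imprinted domain in which many miRNAs are expressed from the maternal copy, and its activity is known to vary between pluripotent cell cultures. The sequences on which the results turn are printed 5′ to 3′ as listed by RefSeq for GRCm38.p6, with the seed in capitals. The first set holds miRNAs that were lower in D3, beside relatives with the same seed, of which miR-181c-5p did not pass the threshold.
let-7a-5p: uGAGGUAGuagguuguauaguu
let-7i-5p: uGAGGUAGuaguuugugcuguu
let-7g-5p: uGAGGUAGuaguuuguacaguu
miR-199a-3p: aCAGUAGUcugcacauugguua
miR-199b-3p: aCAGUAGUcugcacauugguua
miR-214-3p: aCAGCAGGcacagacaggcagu
miR-125b-5p: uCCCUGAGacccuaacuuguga
miR-125a-5p: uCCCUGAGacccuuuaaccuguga
miR-10a-5p: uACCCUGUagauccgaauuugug
miR-10b-5p: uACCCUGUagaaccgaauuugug
miR-181a-5p: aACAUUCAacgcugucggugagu
miR-181c-5p: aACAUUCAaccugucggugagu
miR-142a-5p: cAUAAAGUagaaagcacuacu
The second set holds the main ESC seed, whose core AAGUGC sits 1 base further from the 5′ end in miR-93-5p than in miR-295-3p and miR-302d-3p, and the miRNAs that were relatively higher in D3.
miR-295-3p: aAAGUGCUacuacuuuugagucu
miR-302d-3p: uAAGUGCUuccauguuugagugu
miR-93-5p: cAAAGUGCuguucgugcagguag
miR-127-3p: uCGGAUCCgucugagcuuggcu
miR-541-5p: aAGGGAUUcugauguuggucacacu
miR-410-5p: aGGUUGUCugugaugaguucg
miR-410-3p: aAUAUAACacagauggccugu
miR-210-5p: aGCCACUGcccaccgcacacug
miR-2137: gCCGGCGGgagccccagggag

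The table was read on a deposited and on a relative scale, because its columns do not share a total. A deposited value is the number of reads of a miRNA times 1 step per library, and the deposited columns summed to 140158 ± 18026.8 for the B8 libraries but only 59866 ± 11700.5 for those of D3 (SD over 3 libraries). Recovered reads numbered 138397 to 275271 in B8 and 56377 to 129486 in D3, so low miRNAs are less precisely measured in D3. A value of 3 reads, taken as the floor, was 2.01 in B8 and 1.89 in D3 on the deposited scale, which covers counting error only, and 131 tested miRNAs lay under it in both lines. The relative scale divides each ESC column by a median-of-ratios factor, computed from the 355 miRNAs with reads in every one of the 6 libraries, which removes a shift common to most miRNAs. Replicates of a line correlated at Pearson's r of 0.980 to 0.994 across the 184 miRNAs at 200 per 1000000 or more, and libraries of different lines at 0.818 to 0.862, where miRNAs are not independent replicates.

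The number and direction of line differences depended on this choice. On the deposited scale 245 of 521 miRNAs (47.0%) passed the threshold of an adjusted p of 0.05, with 5 (0.960%) higher and 240 (46.1%) lower in D3 and a median log2 difference of −0.90. On the relative scale 114 (21.9%) passed it, with 41 (7.87%) higher and 73 (14%) lower in D3 and a median of −0.04, and for 190 (36.5%) the 2 lines did not overlap. The relative scale divides the columns by 1.36 to 1.54 in B8 and by 0.554 to 0.787 in D3. A miRNA lower in D3 on that scale thus lies lower still on the deposited scale. All 73 miRNAs lower in D3 on the relative scale were also called lower there. The scaling made this nearly certain, so it adds no support. Of the 41 higher on the relative scale, 5 were higher and 36 did not pass the threshold on the deposited scale, so for these 36 the direction was called on the relative scale alone. The plot of difference against level shows that the lower miRNAs of D3 reached larger differences than the higher ones. Values below are on the relative scale unless the deposited scale is named, and log2 differences are D3 minus B8 of log2(value + 0.48), which understates the difference of miRNAs near 0.

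**Figure D1:**
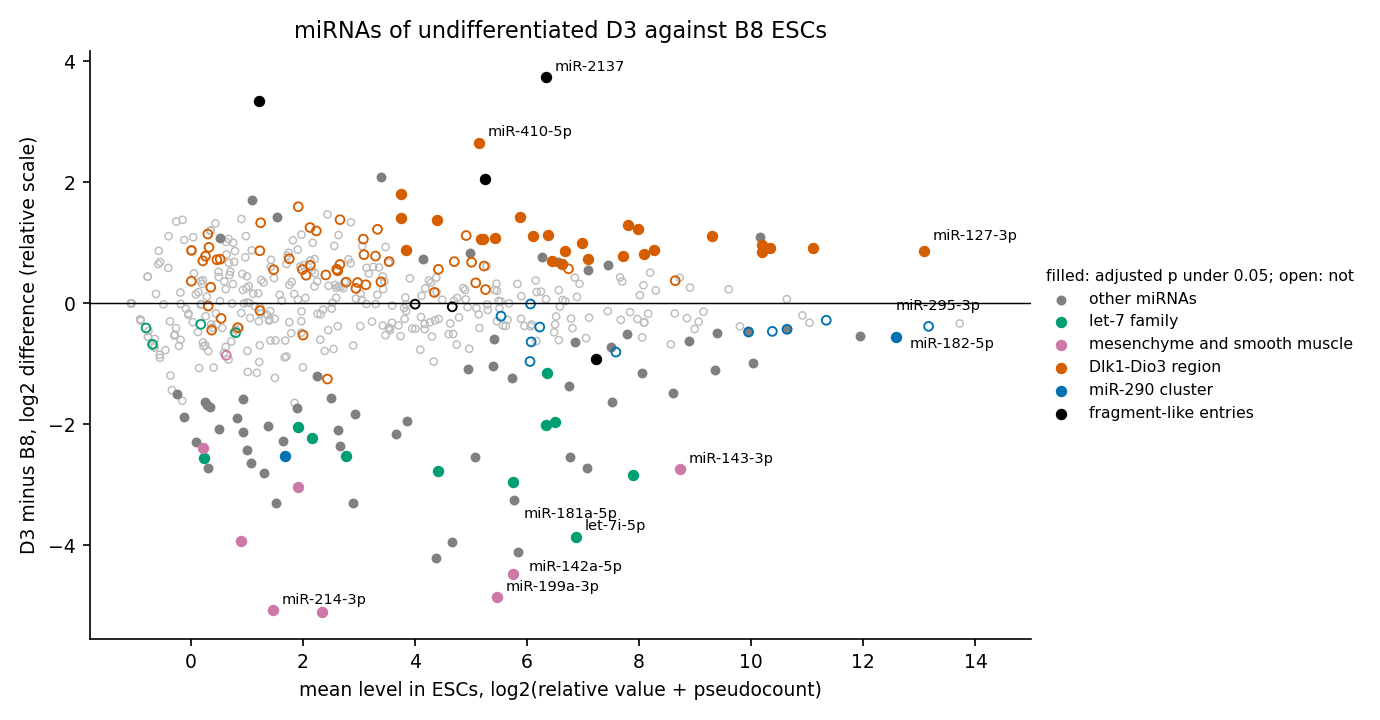
Each point is 1 of 521 miRNAs, with its mean level in ESCs, as log2 of the relative value plus the pseudocount, on the x axis and its D3 minus B8 log2 difference on the relative scale on the y axis. Filled points passed the adjusted p of 0.05; let-7 and mesenchymal members lie below 0, and the filled Dlk1-Dio3 members lie above 0 on this scale, of which miR-410-5p alone passed the threshold on the deposited scale.

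Both lines carried the miRNAs that define ESCs. The miR-290 cluster held 27.4% ± 1.59 of the signal in B8 and 22.1% ± 2.60 in D3, and the miR-302 cluster 0.178% ± 0.0115 and 0.179% ± 0.00683 (SD over 3 libraries). The most abundant miRNA, miR-182-5p of the miR-183 cluster, read 15763, 15524 and 14080.1 in B8 and 11308, 13516 and 11308 in D3. The lines did not overlap for miR-182-5p, but its log2 difference of −0.33 ± 0.14 (SE) did not pass the threshold (adjusted p = 0.102). miR-295-3p, a carrier of the main ESC seed, read 12067, 10831 and 8593 in B8 and 8967, 8275 and 6868 in D3. Here the lines overlapped, and the difference of −0.38 ± 0.29 did not pass the threshold (adjusted p = 0.405). Both were lower in D3 on the deposited scale, by log2 differences of −1.45 and −1.50.

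Within the miR-290 cluster 2 of 13 tested members were lower in D3 and none was higher, against 14% lower among all tested, and the median was −0.46. miR-292a-5p, the cluster's second most abundant product here, read 8313, 7887 and 6201 in B8 and 6132, 4910.0 and 4276 in D3, a log2 difference of −0.55 ± 0.16 (adjusted p = 0.0168). Its D3 libraries all lay below those of B8, but the call was lost under 6 of 17 alternatives, among them equal column totals and leaving out B8 replicate 1, B8 replicate 2 or D3 replicate 3 (adjusted p up to 0.13). edgeR on the recovered reads called 9 of the 13 members lower (16.1% of all tested were). On the deposited scale all 13 were lower, beside 46.1% of all tested. None of the 7 miR-302 members and none of the 12 miR-17-92 members, a growth-promoting cluster, passed the threshold on the relative scale. With edgeR 1 of the 7 was higher and 2 of the 12 were lower, near the 12.7% and 16.1% of all tested. On the deposited scale 3 and 10 were lower, beside 46.1% of all tested. The summed relative values of miR-17-92 were 4411 to 4637 in B8 and 3560 to 3925 in D3, whereas those of miR-302 overlapped. Of the related clusters, the miR-106a-363 cluster had 2 of 7 members lower on the relative scale, beside 14% of all tested. Its summed relative value was 1211 to 1317 in B8 and 732 to 929 in D3. The miR-106b-25 cluster in an intron of Mcm7 had 2 of 6 members lower. Its miR-93-5p read 1521, 1495 and 1375 in B8 and 697, 756 and 776 in D3, a log2 difference of −0.98 ± 0.16 (adjusted p = 0.000168). The levels of D3 for miR-93-5p were thus clear of those of B8. miR-22-3p, of rank 5 in abundance, was lower in D3 by −0.53 ± 0.14 (adjusted p = 0.00888).

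**Figure D2:**
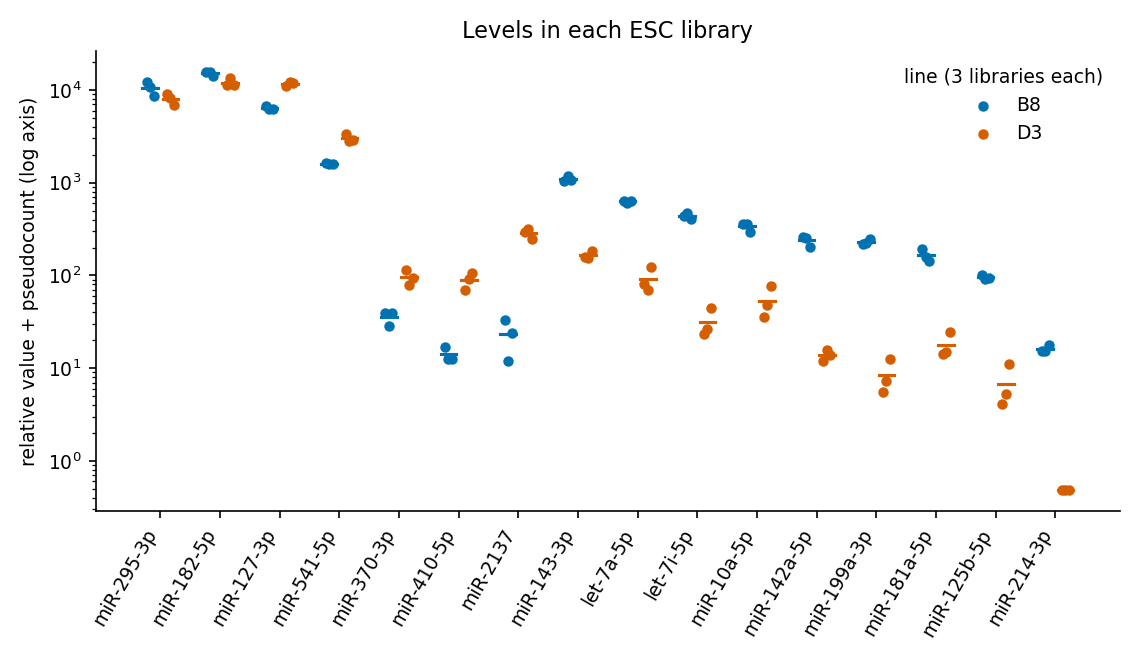
Relative value plus pseudocount in each of the 6 ESC libraries (log y axis) for 16 miRNAs (x axis), with blue points for B8, orange points for D3 and lines at the means of 3 libraries. The points of the 2 lines overlap for miR-295-3p, and miR-214-3p sits at the pseudocount in all 3 D3 libraries; miR-127-3p, miR-541-5p and miR-370-3p are higher in D3 on this scale but did not pass the threshold on the deposited scale.

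The largest differences were in miRNAs typical of mesenchyme and smooth muscle. Of 9 tested members of this list 8 were lower in D3 on the relative scale and all 9 on the deposited scale, against 14% and 46.1% of all tested miRNAs. The list's median was −3.92, or −2.73 with the 3 members at 0 in all D3 libraries set to their bound, beside −0.04 over all miRNAs. Its summed relative value was 1553 to 1718 in B8 and 171.8 to 213.4 in D3, or 1.73% ± 0.155 and 0.214% ± 0.0327 of the signal. In bulk samples, fewer cells of a type and less RNA per cell cannot be told apart.

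miR-143-3p, the most abundant of them and known from smooth muscle, read 1054, 1179 and 1057 in B8 and 157, 153 and 183 in D3. The D3 level was 6.66-fold lower, a log2 difference of −2.73 ± 0.18 (adjusted p = 3.01e-09). miR-199a-3p and miR-199b-3p have the same 22 bases, as the sequences above show, so how reads were split between them is not known. miR-199a-3p read 219.4, 225 and 245 in B8 and 5.06, 6.85 and 12.02 in D3, and its D3 values rested on 7, 10 and 8 reads. The sum over the shared seed CAGUAGU was 479 ± 41.0 in B8 and 19.1 ± 7.23 in D3, 25.1-fold lower in D3. miR-199a-5p read 25.3, 26.4 and 26.1 in B8, and in D3 it had 1 read in replicate 3 and none in the other libraries. miR-214-3p, cut from the same Dnm3os transcript as 1 copy of miR-199a (chr1:162223368-162223477, plus strand), read 14.8, 14.9 and 17.2 in B8 and 0 in every D3 library. It was at least 5.38-fold lower in D3 when the floor of 3 reads per library is taken for D3. The lines stood fully apart for each of these miRNAs. The exception of the list on the relative scale was miR-199b-5p, with means under 2 in both lines, at −0.86 (adjusted p = 0.296).

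The let-7 family was lower in D3 as well. Of 15 tested members 11 were lower on the relative scale and 12 on the deposited scale, beside 14% and 46.1% of all tested miRNAs. None was higher on either scale, and the 4 not called on the relative scale lay under the floor in both lines. The median was −2.05. The family took 1.87% ± 0.0621 of the signal in B8 and 0.341% ± 0.0748 in D3, a summed level of 1709 to 1826 against 252 to 361. let-7a-5p, its most abundant member, read 643, 600.4 and 642 in B8 and 79.4, 69.8 and 122 in D3, 6.96-fold lower in D3 (log2 −2.83 ± 0.17, adjusted p = 1.44e-09). let-7i-5p (hairpin at chr10:122985640-122985724, minus strand) read 442, 467 and 401 in B8 and 23.1, 26.01 and 43.6 in D3, 14.1-fold lower (log2 −3.85 ± 0.21, adjusted p = 3.52e-10). In both miRNAs D3 replicate 3 was the highest of its line and still far below every B8 library. let-7c-5p was the abundant member with the smallest difference, with a mean of 121 ± 8.99 in B8 and 54.4 ± 8.63 in D3. It was chosen for mention after its values were seen.

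The miR-99 and miR-125 families, which lie beside let-7 genes in shared clusters, and the miRNAs embedded in Hox gene clusters showed the same direction. Of 9 tested miR-99 and miR-125 members 6 were lower in D3, with a median of −1.48, and of 8 Hox-embedded members 4 were lower, with a median of −1.20. On the deposited scale 9 and 5 were lower, and no member of either list was higher on either scale. Over all tested miRNAs 14% were lower on the relative scale and 46.1% on the deposited scale. miR-125b-5p read 101, 91.3 and 93.1 in B8 and 3.61, 4.79 and 10.5 in D3, 15.1-fold lower (log2 −3.95 ± 0.26, adjusted p = 3.01e-09). miR-99b-5p read 751, 801 and 434 in B8 and 220.3, 233 and 234 in D3, and B8 replicate 3 stood below the other B8 libraries but above those of D3. miR-10a-5p, encoded in the Hoxb cluster, read 356, 359 and 296 in B8 and 35.4, 47.2 and 76.7 in D3 (log2 −2.72 ± 0.21, adjusted p = 1.92e-08). miR-10b-5p, within introns of Hoxd3 and Hoxd4, was 5.76-fold lower in D3. The lines did not overlap for any of these 4 miRNAs, whereas they overlapped for miR-100-5p, which passed the threshold at −2.16 (adjusted p = 0.00533).

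These 4 lists include miRNAs known from cells other than ESCs, and each had a median below 0 on the relative scale. Other lists had lower members too. The epithelial list had 5 of 11 lower and the miR-34 and miR-449 list 3 of 5, with none higher, beside 14% lower of all tested. Of the lists for further cell types, the neural list had 1 of 16 members higher and none lower in D3, near the 7.87% higher of all tested. That call, miR-219a-2-3p, was lost under 7 of 15 alternatives. Its deposited values were 0.557, 0.585 and 0.864 in B8 and 0.518, 1.08 and 1.67 in D3, under the floor in both lines. The neural list's summed level was 99.4 to 121 in B8 and 106 to 129 in D3. The muscle list had no call among 4 members and held 0 to 2.17 per library, and the endoderm list had none among 6. The part of other cell types in the lower let-7, mesenchymal, miR-125 and Hox levels of D3 was not tested.

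Among blood and endothelial markers both strands of miR-142a were lower in D3. miR-142a-5p, which is known from blood cells (hairpin at chr11:87756864-87756927, plus strand), read 259.6, 251 and 204 in B8 and 11.6, 15.1 and 13.5 in D3. It was 17.8-fold lower in D3 (log2 −4.11 ± 0.27, adjusted p = 3.01e-09), and the other strand of its hairpin, miR-142a-3p, was lower by −3.30 ± 0.47. miR-126a-5p, an endothelial miRNA, overlapped between the lines at 0.12 ± 0.25 (adjusted p = 0.795). Over the list, whose sum was 347 to 409 in B8 and 158 to 173.9 in D3, 2 of 10 members were lower and 1, miR-150-3p at under 4 in every library, was higher on the relative scale, beside 14% and 7.87% of all tested. The call of miR-150-3p was lost under 8 of 16 alternatives.

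Further miRNAs lower in D3 came from several families. Of 11 epithelial miRNAs, which include the miR-200 family and miR-205, 5 were lower on the relative scale and 8 on the deposited scale, beside 14% and 46.1% of all tested, with summed relative values of 718 to 752 in B8 and 375.1 to 375.7 in D3. miR-205-5p read 380.3, 383 and 423 in B8 and 193.5, 157 and 188 in D3 (log2 −1.14 ± 0.18, adjusted p = 0.000119). miR-29a-3p, a repressor of collagen mRNAs, was 5.92-fold lower in D3, at 79.9 ± 3.79 in B8 against 13.5 ± 2.82 in D3 (SD over 3 libraries). miR-21a-5p, abundant in many differentiated cells and chosen for mention after its values were seen, was 2.15-fold lower at 445 ± 52.1 in D3. For each of these the 3 D3 libraries lay below the 3 of B8.

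**Figure D3:**
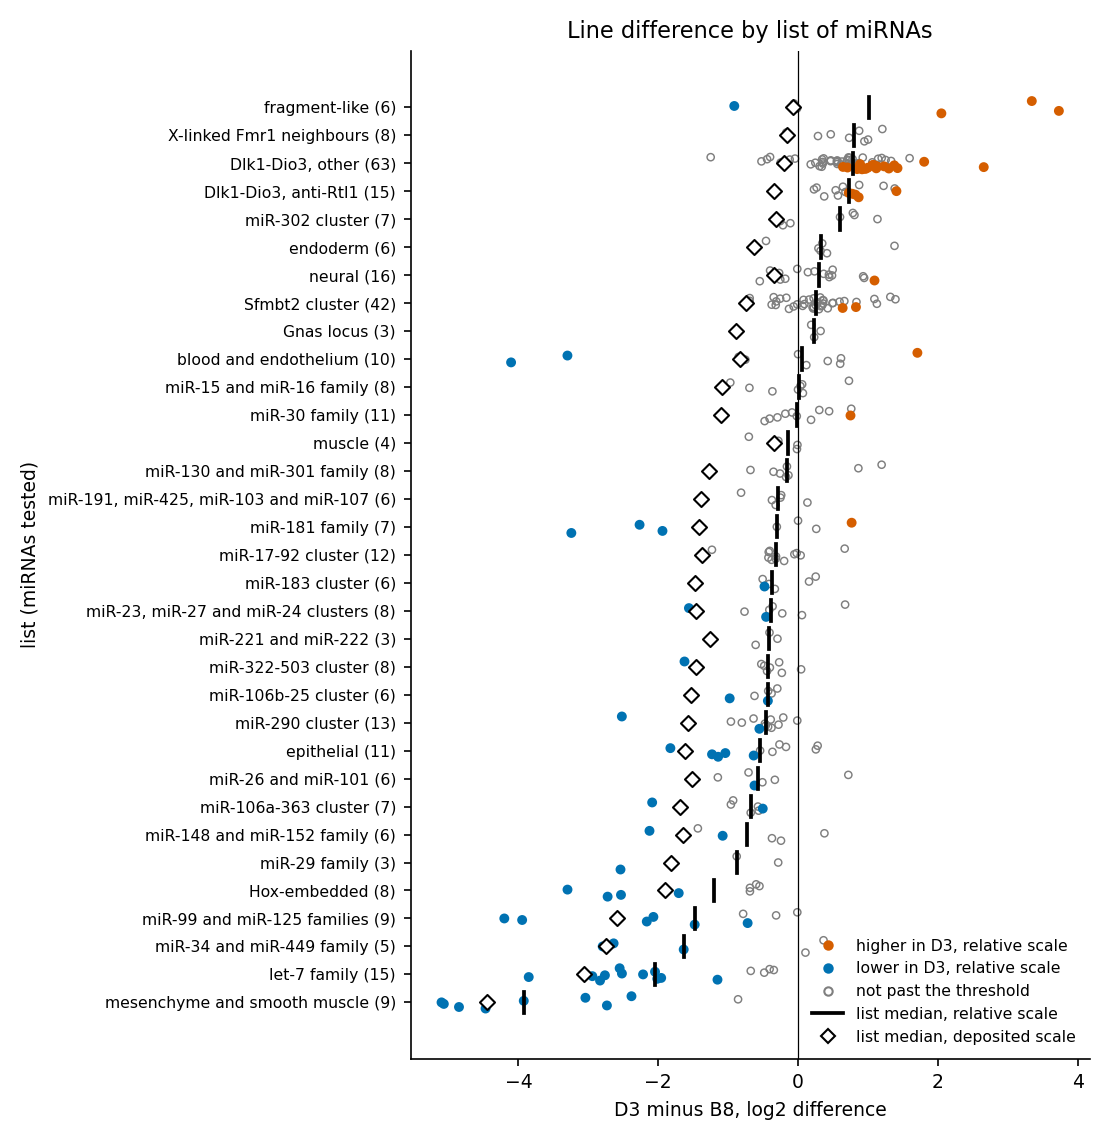
Log2 difference D3 minus B8 (x axis) of the members of each list with at least 3 tested miRNAs (y axis, number tested in brackets); orange and blue points passed the threshold on the relative scale, bars mark list medians on that scale and diamonds those on the deposited scale. The 2 Dlk1-Dio3 lists have medians of 0.73 and 0.78 on the relative scale and −0.34 and −0.20 on the deposited scale, while the let-7, mesenchymal, miR-125 and Hox lists lie below 0 on both. The deposited scale moves list medians down by the scaling alone.

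The higher miRNAs of D3 on the relative scale came mostly from the Dlk1-Dio3 region. Of 15 tested miRNAs antisense to Rtl1 5 were higher in D3 on the relative scale and none on the deposited scale, and of the region's other 63 tested miRNAs 22 were higher on the relative scale and 1 on the deposited scale. None was lower on the relative scale, and 1 and 2 were lower on the deposited scale. Over all tested miRNAs 7.87% were higher and 14% lower on the relative scale, and 0.960% were higher and 46.1% lower on the deposited scale. The medians were 0.73 and 0.78 on the relative scale and −0.34 and −0.20 on the deposited scale, where the median over all miRNAs was −0.90. The antisense group made up 7.84% ± 0.388 of the signal in B8 and 15.2% ± 0.725 in D3, and the others 6.39% ± 0.362 and 13.4% ± 0.315. With edgeR 10 and 31 members were higher, beside 12.7% of all tested, and 1, miR-1193-3p, was lower.

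miR-127-3p, which is antisense to the imprinted gene Rtl1 and the third most abundant miRNA of these ESCs, read 6710, 6250 and 6306 in B8 and 11101, 12134 and 11921 in D3 on the relative scale. On that scale it was 1.82-fold higher in D3 (log2 0.87 ± 0.12, adjusted p = 3.65e-05). Its deposited values were 10330, 9575 and 8550 in B8 and 7955, 9554 and 6608 in D3, which overlap (log2 −0.25, adjusted p = 0.38). The scales also differed for miR-541-5p, at 1646, 1582 and 1576 against 3388, 2825 and 2879.6 on the relative scale (log2 0.92 ± 0.13) and at a log2 difference of −0.20 (adjusted p = 0.48) on the deposited scale. miR-411-5p, miR-410-3p and miR-134-5p were 1.89-fold, 1.81-fold and 2.50-fold higher on the relative scale and not called on the deposited scale. miR-410-5p was higher on both scales, at 16.6, 12.2 and 12.1 in B8 against 70.0, 90.4 and 107 in D3 on the relative scale (log2 2.66 ± 0.37, adjusted p = 2.82e-05) and by log2 1.56 (adjusted p = 0.0012) on the deposited scale. Its D3 libraries lay above all of B8 on both.

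The members were spread over the whole region. Of 78 tested members 73 were located to hairpins between 109563692 and 109747960 on chromosome 12 of GRCm38, a span of 184 kb that holds Rtl1, Rian and Mirg. Of the 43 above the median level of the tested miRNAs, 42 had a positive difference on the relative scale and 26 passed the threshold, with a median of 0.87. Of all 260 miRNAs above that level, 116 had a positive difference and 37 were called higher. The 1 negative member was miR-1193-3p at −1.25 ± 0.56 (adjusted p = 0.138), named after its values were seen, and its B8 libraries read 12.3, 12.6 and 1.91. By position, the plot along the region shows called members at both of its ends.

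**Figure D4:**
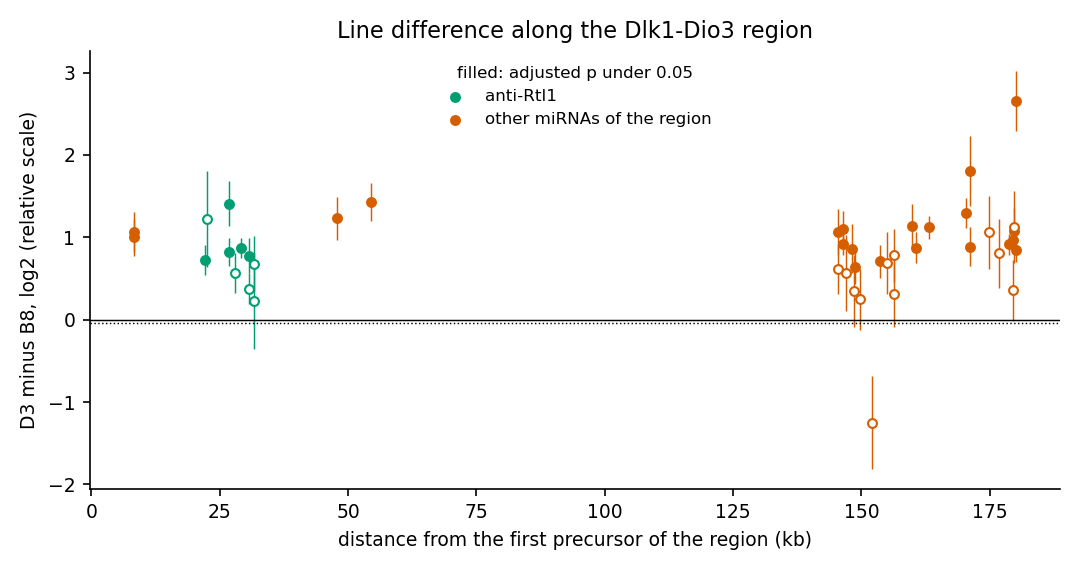
D3 minus B8 log2 difference on the relative scale (y axis, bars are SE) against distance from the first precursor of the region in kb (x axis) for the Dlk1-Dio3 miRNAs above the median level; filled points passed the threshold and the dotted line is the median of all 521 miRNAs. Nearly every point lies above 0 from 8.30 to 180 kb, and on the deposited scale these lists had medians below 0.

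Outside this region, few miRNAs were higher in D3. miR-2137 had the largest difference, at 32.9, 11.5 and 23.6 in B8 and 290.3, 313 and 246 in D3, 12.5-fold higher (log2 3.73 ± 0.31, adjusted p = 3.96e-08, and 2.63 on the deposited scale). miR-2137 belongs to a list of 6 tested entries that may be fragments of longer RNAs. Of these 3 were higher on both scales, beside 7.87% of all tested on the relative and 0.960% on the deposited scale. In this list 1 was lower on the relative scale (14% of all tested were) and 3 on the deposited scale (46.1%). This list took 0.304% ± 0.00227 of the signal in B8 and 0.594% ± 0.0544 in D3. miR-6240 of the same list read 24.2, 14.1 and 15.9 in B8 and 49.1, 96.5 and 87.2 in D3, with D3 replicate 1 the lowest of its line and still above B8. miR-210-5p, from the hairpin of the hypoxia-responsive miR-210, read 4.34, 6.50 and 3.19 in B8 and 23.1, 18.5 and 21.0 in D3 (log2 2.10 ± 0.27, adjusted p = 1.45e-05). The 5 miRNAs higher on the deposited scale were miR-2137, miR-410-5p, miR-6240, miR-210-5p and miR-6236. The abundant miR-92b-3p, outside the naming rule, was 2.14-fold higher on the relative scale (adjusted p = 0.00382) and not called on the deposited scale.

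Other imprinted loci have few tested miRNAs. The Gnas locus had no call on the relative scale among 3 members and the Mest locus none among 2. All of these were lower on the deposited scale, beside 46.1% of all tested. edgeR called 1 of the 2 Mest members higher, beside 12.7% of all tested. Their summed relative value was 229 to 242 in B8 and 278 to 342 in D3, without overlap. The lines also did not overlap for 36.5% of single tested miRNAs on that scale. The only tested member of the H19 and Igf2 loci, miR-483-5p, was at 0 in all 6 libraries. The Sfmbt2 cluster is a large rodent cluster of near-identical copies whose reads are uncertain one by one. Of its 42 tested members 2 were higher on the relative scale, beside 7.87% of all tested, and none was lower. On the deposited scale 14 were lower, a share below the 46.1% of all tested. edgeR called 4 higher, beside 12.7% of all tested, and the cluster's summed relative value was 1094 to 1205 in B8 and 1296 to 1457 in D3. miR-467c-5p was the most abundant of the 2, at 139.7 ± 3.90 in B8 and 218 ± 15.6 in D3.

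Several families held copies from separate genes with unlike values, for which the difference between copies was not tested. miR-34c-5p, of the miR-34b and miR-34c gene, read 325, 320.3 and 317 in B8 and 91.7, 107 and 111 in D3 (log2 −1.64 ± 0.22, adjusted p = 2.8e-05). miR-34a-5p, a p53 target from another chromosome, read 108, 113 and 121 in B8 and 109, 138 and 122 in D3 (log2 0.11 ± 0.18, adjusted p = 0.741), with overlapping lines. miR-181a-5p read 190.2, 159 and 144.04 in B8 and 13.7, 14.4 and 24.0 in D3, 9.46-fold lower, while miR-181c-5p was 1.23-fold lower at an adjusted p of 0.144. The difference of the miR-181 seed ACAUUCA as a whole was −0.25 ± 0.20 (adjusted p = 0.43), and miR-181d-5p, which shares the seed, was at 424 to 446 in B8 and 489 to 586 in D3. miR-125a-5p was 1.64-fold lower (adjusted p = 0.0052) beside the 15.1-fold of miR-125b-5p. miR-27b-3p was 1.37-fold lower (adjusted p = 0.0213), a call lost under 7 of 17 alternatives, among them equal column totals and leaving out B8 replicate 1, B8 replicate 2, D3 replicate 1 or D3 replicate 3 (adjusted p up to 0.138). miR-27a-3p read 97.0 ± 3.35 in B8 and 101 ± 5.58 in D3. All of these were lower in D3 on the deposited scale.

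Summed over seeds, which does not depend on how reads were split between members of a family, 79 of 345 families (22.9%) passed the threshold, 35 higher (10.1%) and 44 lower (12.8%) in D3. The let-7 seed GAGGUAG, with 9 members, fell from 1744 ± 63.8 in B8 to 291.3 ± 57.1 in D3, a log2 difference of −2.60 ± 0.14 (adjusted p = 2.72e-10). The miR-10 seed ACCCUGU was 6.08-fold lower and the miR-29 seed AGCACCA 4.96-fold lower in D3. For the main ESC seed AAGUGCU the sum was 10951 ± 1799 in B8 and 8354 ± 1125 in D3 (log2 −0.39 ± 0.28, adjusted p = 0.386). The related seed AAAGUGC of miR-93, miR-17 and miR-20 was lower by −0.71 ± 0.17 (adjusted p = 0.00504), and the seed AUUGCAC of miR-92 and miR-25 differed by 0.02 ± 0.16 (adjusted p = 0.973). All 5 seeds with the largest increases in D3, led by CCGGCGG of miR-2137, were also positive on the deposited scale.

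The balance of the 2 strands of a hairpin is free of the library factor, since both come from the same library. Of 94 precursors with both strands measured 4 (4.26%) passed the threshold, 2 with a higher (2.13%) and 2 with a lower (2.13%) 5p share in D3, and 17 had an unadjusted p under 0.05. For miR-410 the 5p strand made up 1.96%, 1.34% and 1.35% of its reads in B8 and 4.97%, 4.95% and 6.06% in D3 (log2 of 5p to 3p 1.81 ± 0.20, adjusted p = 0.00146). For miR-210 it made up 8.82%, 13.6% and 5.68% in B8 and 38.6%, 28.4% and 30.4% in D3 (2.18 ± 0.41, adjusted p = 0.0171), and the main strand miR-210-3p itself overlapped between the lines. The call for miR-210 rests on 5 to 32 reads of miR-210-5p per library and was lost without B8 replicate 1, B8 replicate 3 or D3 replicate 1 (adjusted p up to 0.0948). The 5p share was lower in D3 for miR-181c, from 91.0% ± 0.685 to 82.8% ± 1.69, and for miR-21a, from 97.8% ± 0.344 to 95.2% ± 0.234. The call for miR-21a was lost when 5 groups shared the spread (adjusted p = 0.0626). The dominant strand was the same in both lines for 86 of the 92 precursors whose 5p share could be given in both lines, and none of the 6 with another dominant strand passed the threshold.

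Day 7 embryoid bodies of the same lines, 3 of B8 and 2 of D3, share no library with the ESCs and gave the line difference after the start of differentiation. On their own relative scale 203 of 521 miRNAs (39.0%) passed the threshold there, 105 higher (20.2%) and 98 lower (18.8%) in D3. Of the 73 miRNAs lower in D3 ESCs, 21 were lower, 17 were higher and 35 did not pass the threshold at day 7. Of the 41 higher in D3 ESCs, 22 were higher, 3 were lower and 16 did not pass it. The line difference itself differed between days for 164 of 521 miRNAs (31.5%), among them 49 of the 73 lower and 14 of the 41 higher in D3 ESCs. Those 73 and 41 miRNAs were picked by their ESC differences, which are part of this contrast. That choice alone favours calls among them. The days differed for 74.3% on the deposited scale, with 2.50% higher and 71.8% lower in D3 ESCs than at day 7.

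Of the let-7 list 2 of 15 members were higher and 1 was lower in D3 at day 7, and of the mesenchymal list 6 of 9 were higher and none lower, beside 20.2% and 18.8% of all tested. let-7i-5p was higher in D3 at day 7, at 1027 and 883 against 572, 549 and 441 in B8, after being 14.1-fold lower in ESCs (difference of the line differences −4.73 ± 0.31, adjusted p = 4.1e-09). miR-199a-3p read 540.4, 1304 and 409 in B8 and 1197 and 1515 in D3 at day 7, which was higher in D3 by the test (log2 1.03, adjusted p = 0.0389), although the lines overlapped where they had stood apart in ESCs. miR-142a-5p remained lower in D3, at 1.54 and 0.726 against 27.8, 41.4 and 27.6, with a change in the line difference of 0.26 (adjusted p = 0.68) on the relative scale and of −2.24 (adjusted p = 0.00017) on the deposited scale. miR-127-3p remained higher in D3 on the relative scale, at 10615 and 11110 against 4994, 5015 and 5799, and its line difference changed by −0.18 (adjusted p = 0.51). Of the Dlk1-Dio3 lists 10 of 15 and 30 of 63 members were higher in D3 at day 7 on the relative scale, and none was lower. On the deposited scale, where D3 had the larger values at day 7, 66.0% of all tested miRNAs were higher in D3. miR-292a-5p of the miR-290 cluster was at 772 and 705 in D3 and at 10799, 10967 and 9053 in B8, and all 13 tested members of the cluster were lower in D3 at day 7.

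**Figure D5:**
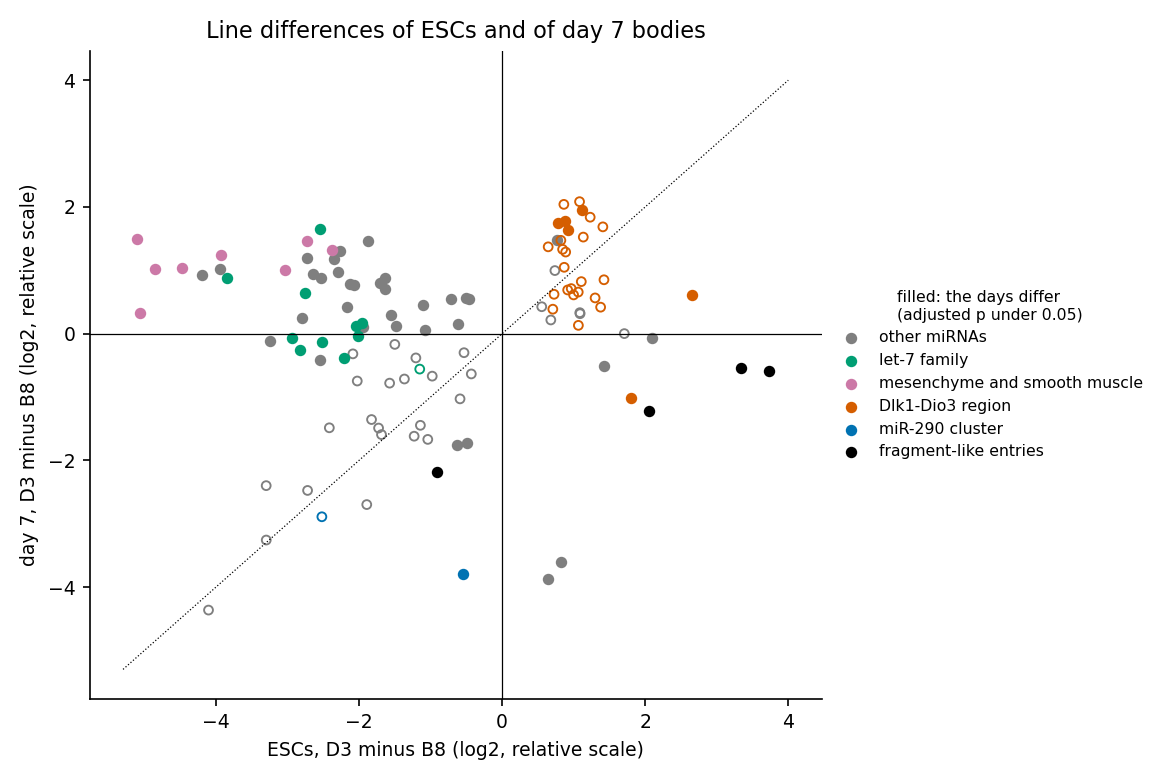
Log2 difference D3 minus B8 in ESCs (x axis) and in day 7 embryoid bodies (y axis), both on relative scales, for the 114 miRNAs that passed the threshold in ESCs; filled points passed the test of the difference between days and the dotted line marks equal differences. The called mesenchymal members lie above 0 at day 7 and let-7 members on both sides of it, although both are low in D3 ESCs, and most Dlk1-Dio3 members are above 0 on both days on these scales.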

How the data were processed

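Per the labels, total RNA was made into barcoded small RNA libraries and sequenced. The deposited values are signal: reads per mature miRNA times 1 step per library, with TMM named in the table's title, and values of up to 1000 reads were all (100%) whole within 0.01 read once divided by that step. The submitters' processing notes name CASAVA, FastQC, Bowtie, Partek and mm10, without versions. Rules for reads matching several miRNAs are not given in the sources used here.

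limma (version 3.58.1, R 4.3.3) was fitted to log2(value + 0.48), a pseudocount of 2 per 1000000 of the mean column total. It used 14 libraries in 5 groups, a prior variance with a trend, and 9 residual degrees of freedom. Tests were 2-sided and p-values were adjusted by Benjamini-Hochberg over all 521 miRNAs. Strand ratios and seed sums were tested alike, the former in the 6 ESC libraries at 20 per 1000000 or more. edgeR (version 4.0.16) quasi-likelihood tests on recovered read counts, with 150 miRNAs called, were an alternative, as were other pseudocounts, filters, scalings, a replicate block and leaving out each library. Scripts were tested on simulated data. Sequences (873 of 1033 miRNAs matched) and hairpin positions are from RefSeq and GENCODE for GRCm38. The 3 B8 samples of day 21 were not analysed here.

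Named miRNAs were the 10 most abundant, the 10 largest called differences each way above the median level and without overlap, up to 3 called members and the most abundant uncalled member of each list, and up to 5 strand ratios and 5 seed families each way. The comparison, the lists and these rules were chosen with earlier results of these data known. Some miRNAs outside these rules were named after their values were seen. They were let-7c-5p, miR-100-5p, miR-1193-3p, miR-181d-5p, miR-210-3p, miR-21a-5p, miR-6236 and miR-92b-3p.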

Additional observations from a re-analysis of the deposited data

Results flagged for a closer look

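The miRNAs looked at were the 10 with the largest called ESC differences each way by the naming rule. For 13 of them the line difference itself differed between ESCs and day 7 embryoid bodies by limma's interaction test on the relative scales. They were picked by their ESC differences, which are part of the tested contrast, so the choice alone favours calls. The values are the ESC difference minus the day 7 difference, on the log2 scale. In the mesenchymal list this was −6.59 for miR-199a-5p, −5.39 for miR-214-3p, −5.88 for miR-199a-3p and −5.51 for miR-199b-3p, since D3 was far below B8 in ESCs and level with or above it at day 7. It was −5.12 for miR-125b-1-3p, −4.97 for miR-125b-5p, −4.73 for let-7i-5p and −3.12 for miR-181a-5p, of which the last had no call at day 7. The value was 4.33 for miR-2137, 3.28 for miR-6240, 2.82 for miR-485-3p, 2.17 for miR-210-5p and 2.05 for miR-410-5p, which were higher in D3 ESCs and not higher by the test at day 7 on the relative scale. Of these, miR-6240 was called lower in D3 at day 7 by limma on that scale (log2 −1.23, adjusted p = 0.02). On the deposited scale the differences between days of miR-210-5p and miR-410-5p were −0.55 and −0.69, and the day 7 differences of miR-2137, miR-210-5p and miR-6240 were 1.06, 1.59 and 0.42. D3 at day 7 has 2 libraries.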

How the results depend on the processing

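Shares here are of the 521 miRNAs, 345 seed families or 94 precursors of the tests above. Of the 63 named miRNAs called on the relative scale 42 kept the call under every alternative, 21 lost it under at least 1, and none changed direction. Leaving out 1 library gave calls for 39.5% to 46.1% of miRNAs on the deposited scale (0.576% to 0.960% higher, 38.6% to 45.1% lower), 17.7% to 21.3% on the relative scale (6.33% to 7.87% higher, 11.3% to 13.8% lower), 3.19% to 6.38% of strand ratios (1.06% to 3.19% higher, 2.13% to 3.19% lower) and 17.7% to 22.9% of seed families (8.41% to 10.1% higher, 8.70% to 12.8% lower). Without B8 replicate 3 the deposited scale had 0.576% higher, and without B8 replicate 1 or 3 the strand ratios had 1.06% higher. A filter at 200 per 1000000, which tests fewer miRNAs, gave 27.6% on the deposited scale (0.576% higher, 27.1% lower), 8.64% lower on the relative scale and 7.45% of strand ratios (4.26% higher). The 6 ESC libraries alone gave 0.576% higher on the deposited scale, and edgeR on recovered reads 12.7% higher on the relative scale. A pseudocount of 10 per 1000000 gave 9.57% of strand ratios (4.26% higher, 5.32% lower), and sharing the spread over 5 groups 1.06% lower. On the deposited scale the shares were 43.2% of seed families (1.45% higher, 41.7% lower), 75.2% of miRNAs at day 7 (66.0% higher, 9.21% lower) and 74.3% between days (2.50% higher, 71.8% lower). Equal column totals gave 9.40% higher at day 7 and 10.4% lower between days. The deposited scale reversed the day 7 difference of miR-181a-5p (1.55), miR-2137 (1.06), miR-210-5p (1.59) and miR-6240 (0.42), and the difference between days of miR-142a-5p (−2.24), miR-410-5p (−0.69), miR-210-5p (−0.55), miR-370-3p (−2.20), miR-485-5p (−1.75) and miR-134-5p (−2.05). The cause was not tested. With replicate number as a block in the 6 ESC libraries alone 97 miRNAs were called on the relative scale (38 higher, 59 lower), against 120 in those libraries without the block, and 0.576% were higher on the deposited scale with or without it. Same-numbered samples correlated at 0.274, 0.0758 and 0.124 in their deviations over 184 miRNAs. Each D3 replicate correlated best with the B8 replicate of its number, whereas B8 replicate 2 correlated best with D3 replicate 3 (0.113). Replicate 3 had the fewest reads in both lines. Whether the numbers pair samples is not known, and the main tests did not pair them. Depth limits miRNAs near 3 reads, most of all in D3 replicate 3 with 56377 reads.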

Other observations

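Calls were also read by genomic cluster. There were 30 clusters of hairpins no more than 10000 bases apart, made of miRNAs with a single locus on GRCm38. Of these, 9 had at least 2 called members on the relative scale, where 7.87% of all tested miRNAs were higher and 14% lower. Only those 9 could have had calls in both directions, and none did. They include separate pieces of the Dlk1-Dio3 region, and members can be both strands of a hairpin. Differences that did not pass the threshold went both ways within clusters. In the let-7a-1 and let-7d cluster on chromosome 13 (48536012 to 48538272) all 4 tested strands were lower in D3, between −2.94 and −2.52. In the miR-200b, miR-200a and miR-429 cluster on chromosome 4 (156053905 to 156055750), which is known from epithelia, 3 of 5 were lower, between −1.83 and −0.27 over the 5. The miR-23a, miR-27a and miR-24-2 cluster on chromosome 8 had no call among 4 members on the relative scale and a median of −0.08.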
